A study of Mus musculus with 15 samples.

Results

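EpCAM antibody-high pixels are the places where, in 4 sections cut from E10 mouse embryos (10 days of development), an oligonucleotide-tagged antibody to EpCAM gave the largest share of the antibody signal. They were chosen by the antibody alone. In each section, the pixels in the top 5% of EpCAM tags per 10000 antibody counts were taken from the tissue pixels, which are those with a transcript total of at least 0.1 of the 95th percentile of the section. This gave 288 EpCAM-high pixels of 5735 tissue pixels, against 17046 tissue pixels in all 11 transcript libraries of the series. The study used deterministic barcoding in tissue: barcodes flowed through crossed microfluidic channels mark each crossing of a frozen section as a pixel, whose transcripts and antibody tags are then sequenced. Antibody tags for 22 antibodies were counted in 4 E10 sections, with pixels 50 µm wide (replicates 1 and 3), 25 µm wide and 10 µm wide (replicate 2), and the EpCAM-high pixels numbered 43, 42, 89 and 114 in that order. All 4 came from embryos that were snap-frozen after dissection, with no treatment named. Strain, genotype, sex, the embryo and the body region of a section are not given in the labels. The spread between these 4 sections may therefore be technical. The p-values below also draw on counting error and on a spread estimated over all genes together. A very small p-value is thus not a measure of replication over embryos. Flipping signs over 4 sections alone could give no p-value under 0.125.

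EpCAM is a membrane glycoprotein that holds epithelial cells to each other, and it is found on most simple epithelia and on their progenitors. In an embryo of this age, epithelia line the body surface, the foregut and pharynx, the sensory placodes such as the otic vesicle, and the ducts of the early kidney. An epithelial cell is also marked by claudins and occludin of tight junctions, by E-cadherin, by the paired keratins 8 and 18, and by regulators such as Grainyhead-like factors and the splicing factor Esrp1. The neural tube, also an epithelium, exchanges E-cadherin for N-cadherin as it forms.

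The transcript of Epcam itself, which the choice of pixels did not use, was higher in the EpCAM-high pixels. Epcam lies on chromosome 17 from 87635979 to 87651129 on the plus strand (GENCODE M21, GRCm38). In counts per 1000000 transcript counts (CPM), its level was 147 against 16.6 in the other pixels at 50 µm replicate 1, from 72 and 180 counts. It was 58.3 against 6.41 CPM at 50 µm replicate 3 (20 and 66 counts) and 46.8 against 4.06 CPM at 25 µm (4 and 6 counts). At 10 µm replicate 2 the level was 4.25 against 2.57 CPM, from 1 and 13 counts. In the first 3 sections the ratios were close to each other, at 8.86 (95% exact counting interval 6.64 to 11.7), 9.09 (5.22 to 15.2) and 11.5 (2.39 to 48.7). In the 10 µm section the ratio was 1.66, with an interval of 0.039 to 11.0, which holds 1 as well as the ratios of both 50 µm sections. Summed per section and fitted over all genes with edgeR's quasi-likelihood test, with the section as a block, the log2 fold change was 3.02 (SE 0.35, n = 4 sections, adjusted p = 3.35e-08). Without the 10 µm section it was 3.17 (SE 0.31, n = 3 sections, adjusted p = 4.01e-20 in edgeR). Both fits had a filter on low counts, which Epcam passes only through the EpCAM-high pixels. Its call was kept in both without that filter.

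The 250 bases before the start of Epcam and of 2 further genes that changed in the EpCAM-high pixels are shown because these genes moved together or apart in the same pixels: Lama5, a laminin chain of epithelial basement membranes that rose, and Pou3f2, a neural transcription factor that fell. They are from RefSeq (GRCm38.p6), 5′ to 3′ on the strand of the gene, at chr17:87635729-87635978 (plus), chr2:180225860-180226109 (minus) and chr4:22488367-22488616 (minus). Capitals mark CAGGTG or its reverse complement CACCTG, the E-box bound by Snail and Zeb repressors of epithelial genes.
Epcam: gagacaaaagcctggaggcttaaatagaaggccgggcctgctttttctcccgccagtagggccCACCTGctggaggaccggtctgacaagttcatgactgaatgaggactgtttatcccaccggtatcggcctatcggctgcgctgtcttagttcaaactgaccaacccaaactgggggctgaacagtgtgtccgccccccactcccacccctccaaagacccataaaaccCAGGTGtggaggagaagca
Lama5: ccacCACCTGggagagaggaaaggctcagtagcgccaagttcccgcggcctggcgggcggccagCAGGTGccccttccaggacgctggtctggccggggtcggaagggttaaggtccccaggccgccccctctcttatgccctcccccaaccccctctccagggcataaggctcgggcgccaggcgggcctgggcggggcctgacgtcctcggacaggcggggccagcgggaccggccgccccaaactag
Pou3f2: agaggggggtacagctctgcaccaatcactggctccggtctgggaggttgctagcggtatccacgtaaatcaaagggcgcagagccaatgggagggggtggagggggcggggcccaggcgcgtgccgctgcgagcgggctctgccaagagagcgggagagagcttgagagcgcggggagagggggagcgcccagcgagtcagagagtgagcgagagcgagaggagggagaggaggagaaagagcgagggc
The Epcam and Lama5 stretches each hold 2 matches and the Pou3f2 stretch holds 0, but this is no rule: the stretch before Pdgfc, which rose, holds 0 and that before Rbfox3, which fell, holds 1. Of all windows in the promoter table, which are 300 bases long and run 50 bases past the start, 20.2% hold a match. A match is a string of letters and not evidence of binding. The share of such matches among called genes could not be compared with other genes, because only 55 of the 78 genes called higher (70.5%) and 71.8% of all genes tested had an entry in the promoter table, so that check is void.

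By antibody, the EpCAM-high pixels differed in strength between sections, and these values describe the choice and carry no test. The median share was 583 tags per 10000 at 50 µm replicate 1, against 351 in the other pixels. It was 846 against 300 at 50 µm replicate 3, 1380 against 277 at 25 µm, and 470 against 280 at 10 µm. The highest pixel reached 1342, 2060, 3312 and 827 in the same order. Just inside and just outside the limit, the shares were 530.55 and 530.49, 498 and 494, 753 and 740, and 430.46 and 430.29, so the limit falls in a continuous range rather than in a gap.

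The 10 µm section stood apart by its antibody tags. There the EpCAM-high pixels held a median of 20 EpCAM tags against 19 in the other pixels, and their median antibody total was 420.5 against 677. In the other 3 sections the EpCAM-high pixels held 169 against 89.5, 387.5 against 137 and 188 against 38 tags and their antibody totals were 0.974, 0.968 and 0.949 times those of the others. Of the 10 µm EpCAM-high pixels, 77 of 114 (67.5%) had under 500 antibody counts, against 29.6% of the other pixels of that section and 0 EpCAM-high pixels of the other sections. The part of these antibody totals in the choice of pixels was not tested at 10 µm beyond an alternative with at least 500 antibody counts, and the results are given with and without this section.

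**Figure D1:**
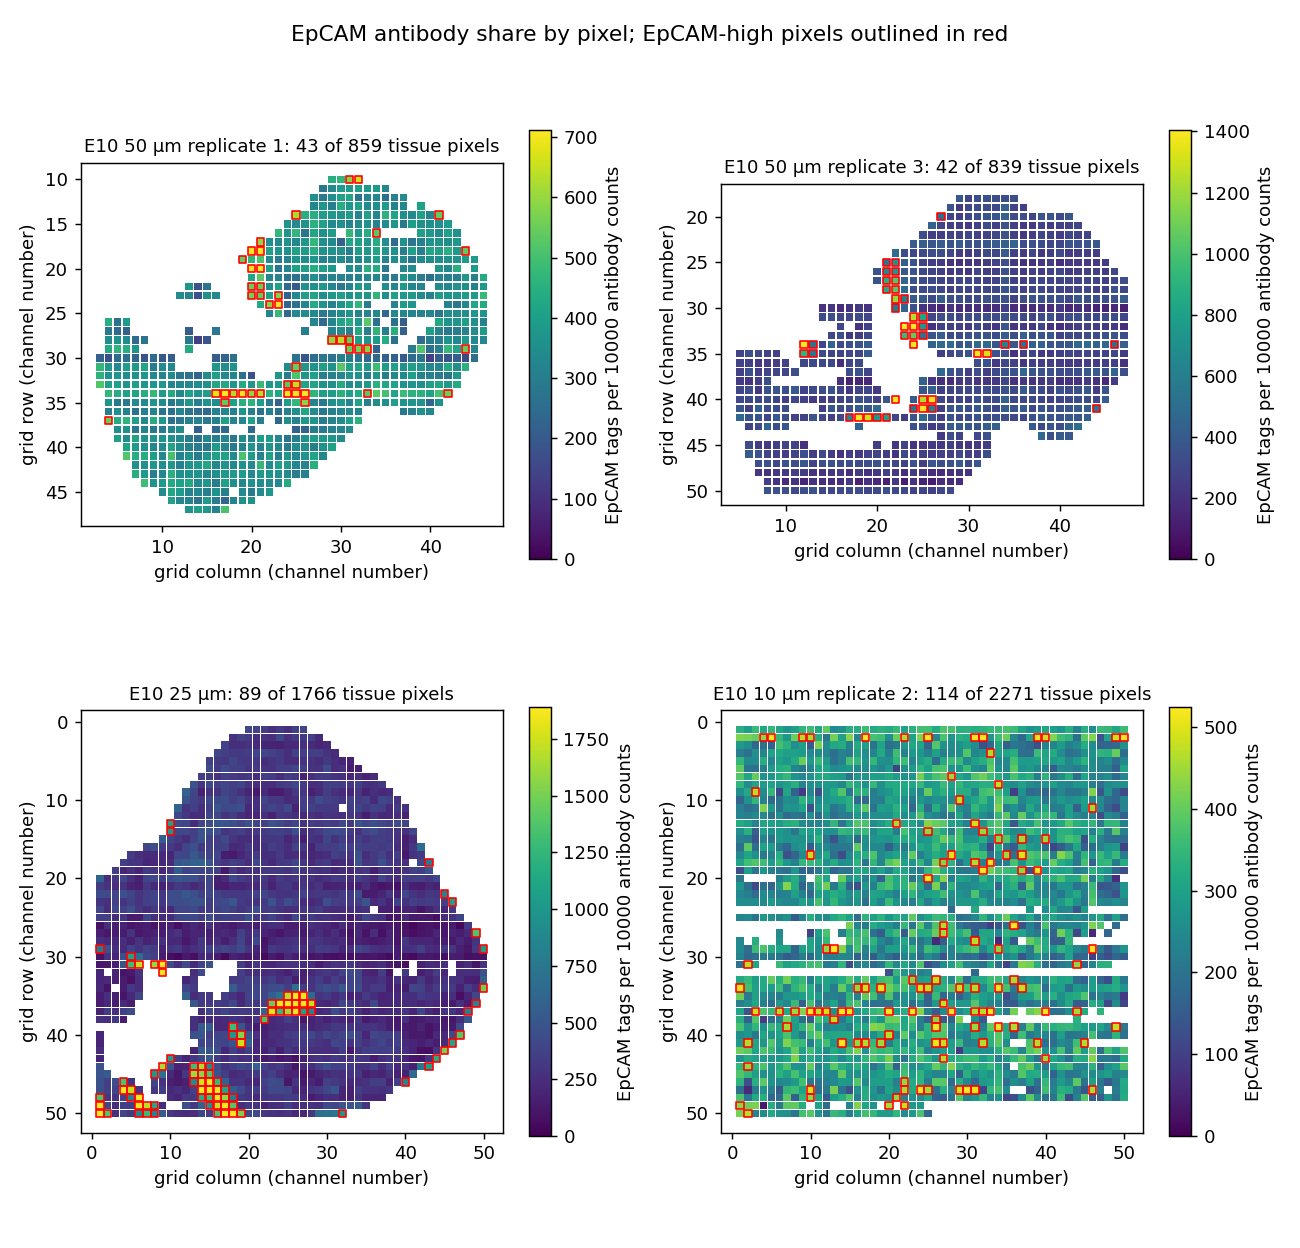
Tissue pixels of the 4 sections on the channel grid (axes: channel number), coloured by EpCAM tags per 10000 antibody counts with a separate scale per section, and with EpCAM-high pixels outlined in red. They form runs and patches in the 50 µm and 25 µm sections, while 73 of the 114 in the 10 µm section touch no other EpCAM-high pixel.

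In the 50 µm and 25 µm sections the EpCAM-high pixels lay together. Of the edge-sharing tissue neighbours of EpCAM-high pixels, 37.8% were EpCAM-high at 50 µm replicate 1, 56.3% at 50 µm replicate 3 and 56.9% at 25 µm. About 5% of all tissue pixels were. A neighbour of several EpCAM-high pixels was counted for each of them. At 10 µm the value was 10.1%. The 5 grid rows with the most EpCAM-high pixels held 55.8%, 52.4%, 44.9% and 50.0% of them in the 4 sections. Rows with tissue numbered 38, 33, 50 and 50, so this share did not set the 10 µm section apart. Patches of 5 or more edge-sharing pixels numbered 3, 4 and 3 in the first 3 sections, with up to 27 pixels, and 0 at 10 µm, where the largest patch had 3 pixels. On the tissue border, defined as pixels with a missing neighbour, lay 39.5%, 47.6% and 43.8% of the EpCAM-high pixels, against 28.8%, 25.3% and 12.2% of the others. At 10 µm the shares were 17.5% and 21.3%.

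Transcript depth also differed. The EpCAM-high pixels of the 4 sections gave 490389, 343077, 85403 and 235151 transcript counts, against 10857700, 10291657, 1478086 and 5064045 from the others. The median per pixel was 9318 against 11463, 7595 against 10825, 949 against 837 and 1733 against 2124. A level of 0 in the EpCAM-high pixels therefore allows up to 6.12, 8.74, 35.1 and 12.8 CPM (3 counts, counting error only). When the comparison was limited to other pixels of like transcript and antibody totals, the Epcam log2 fold change was 3.01 over 4 sections and 3.26 over 3.

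**Figure D2:**
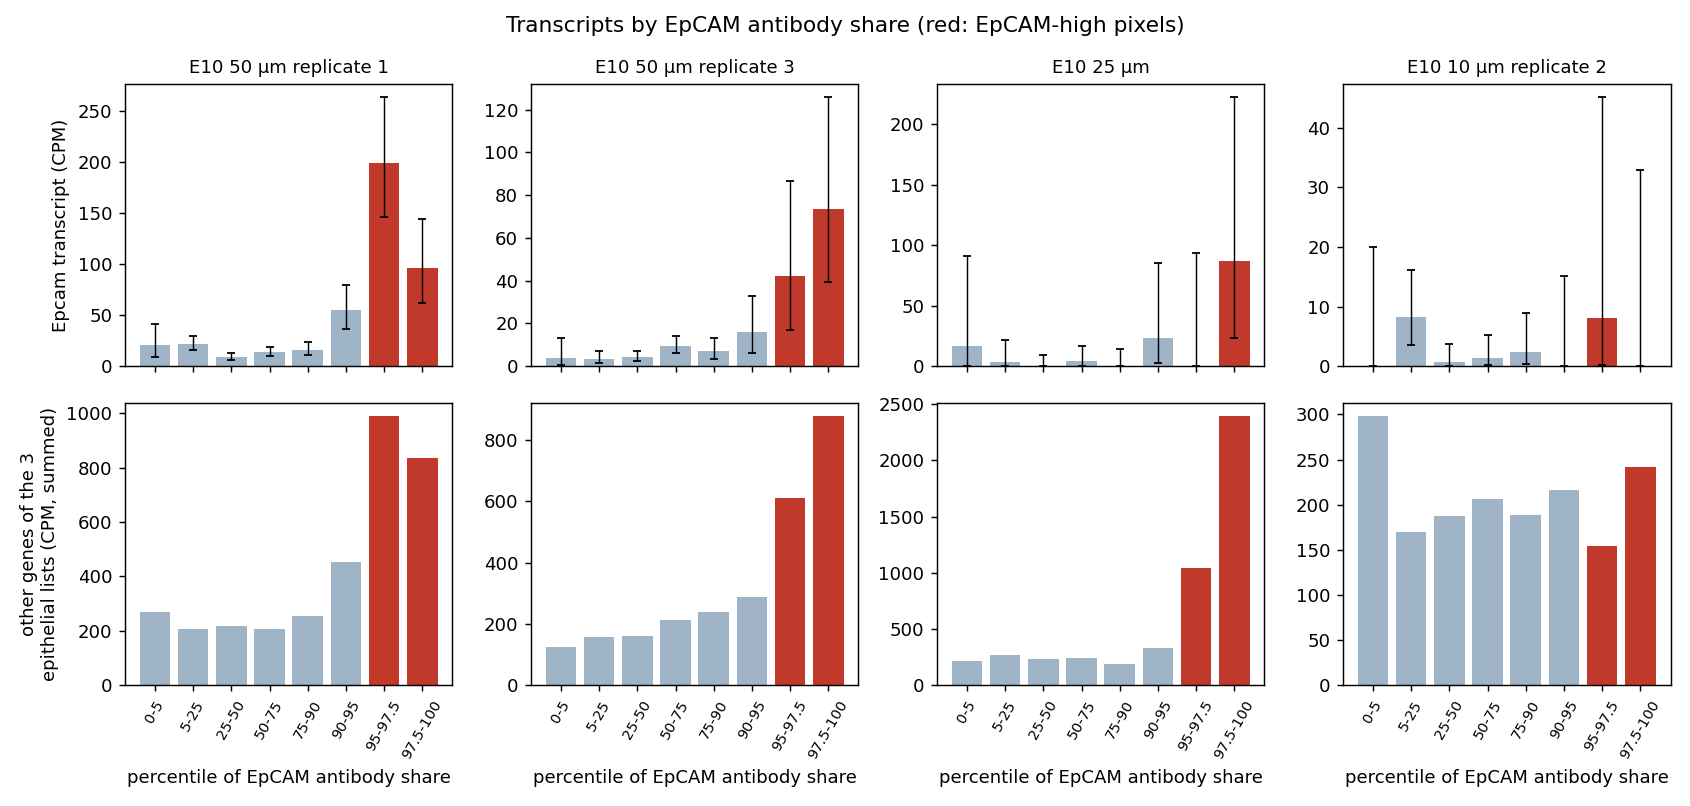
Epcam transcript (top, CPM with 95% exact counting intervals) and the summed CPM of the other genes of the 3 epithelial lists (bottom) in 8 ranges of the EpCAM antibody share, by section, with the 2 EpCAM-high ranges in red. In the 50 µm replicate 3 section Epcam was 7.10 CPM in the 75th to 90th percentile, 15.97 in the 90th to 95th, 42.0 in the 95th to 97.5th and 73.6 above it.

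Along the antibody share, the other genes of the epithelial lists were highest in the EpCAM-high ranges of the 50 µm and 25 µm sections. Epcam was so in both 50 µm sections. The sections differed below these ranges. At 50 µm replicate 1 Epcam lay between 9.29 and 21.8 CPM in the 5 ranges below the 90th percentile, reached 54.7 CPM (interval 36.0 to 79.5) in the 90th to 95th, and 199 and 96.5 CPM in the 2 EpCAM-high ranges. So the top range was not the highest there. The other genes of the epithelial lists summed to 205.9 to 270 CPM below the 90th percentile, 453 CPM in the 90th to 95th, and 988 and 837 CPM above. At 50 µm replicate 3 the sum climbed throughout, from 124 CPM in the lowest range to 240.0 CPM in the 75th to 90th percentile, 287 CPM in the 90th to 95th, and 612 and 878 CPM above. At 25 µm the sum was 194 to 266 CPM below the 90th percentile and 1041 and 2391 CPM in the EpCAM-high ranges. Epcam there gave 2 counts in the 90th to 95th percentile, 0 in the 95th to 97.5th and 4 above it. At 10 µm the sum was 154 and 242 CPM in the EpCAM-high ranges, against 170 to 298 CPM in the lower ones. The antibody and the transcript overlapped only in part as pixels: 44.2%, 31.0%, 4.49% and 0.877% of the EpCAM-high pixels held an Epcam count, against 14.6%, 6.65%, 0.358% and 0.510% of the others, and 13.8%, 19.7%, 40.0% and 8.33% of the pixels with an Epcam count were EpCAM-high.

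Over all genes, 78 of 10214 tested (0.764%) were higher and 75 (0.734%) were lower in the EpCAM-high pixels of the 4 sections (edgeR, adjusted p under 0.05). Without the 10 µm section these were 175 of 10467 (1.67%) and 184 (1.76%), of which 74 and 74 were also called over 4 sections. Of the 175 and 184 genes, 38 and 3 were not tested over 4 sections. With no filter on low counts, the fit without the 10 µm section called 132 of 25067 higher (0.527%) and 171 lower (0.682%). All 78 higher genes were higher in both 50 µm sections, 63 at 25 µm and 62 at 10 µm, against 50.6%, 50.0%, 45.4% and 46.2% of all genes tested. They were called from these same sections, so these counts are a description. DESeq2 called 56 higher and 20 lower over 4 sections and 67 and 32 over 3. Each count rests on both 50 µm sections, since without replicate 1 it was 10 and 12, and without replicate 3 it was 22 and 25. In a mixed pixel, fewer cells of a type and less RNA per cell cannot be told apart, so "higher" and "lower" are relative levels of a pixel's RNA.

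Of the 16 gene lists, that of epithelial adhesion and junctions had the most genes that rose. Many of them are rare enough that they pass a filter on low counts only through the EpCAM-high pixels, so the lists were counted in a fit with no filter. That fit called 105 of 25744 genes higher (0.408%) and 245 lower (0.952%) over 4 sections, and 132 of 25067 (0.527%) and 171 (0.682%) over 3. In it, 11 of the 21 genes of the adhesion and junction list were higher over 4 sections and 11 over 3, 0 were lower, and 19 had a positive log2 fold change in either fit. The median log2 fold change of the list was 2.71 over 3 sections, against -0.33 over all genes, where genes with few counts pull the median below the value of -0.00 of the filtered fit. The list summed to 614 against 188 CPM, 466 against 154, 878 against 160 and, at 10 µm, 174 against 157. Epcam, Dsp, Lama5, Krt8 and Tbx2 are among the genes that pass the filter only through the EpCAM-high pixels. Their 4-section p-values in this text, and the 3-section p-value of Epcam, come from filtered fits, and each kept its call without the filter.

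Tight junction claudins and cadherins rose in the 50 µm and 25 µm sections. Cldn7 was at 20.4 against 1.01 CPM at 50 µm replicate 1 (10 and 11 counts), 35.0 against 1.17 at 50 µm replicate 3 (12 and 12 counts) and 58.5 against 3.38 at 25 µm (5 and 5 counts), with 0 and 1 counts at 10 µm. Its log2 fold change, in the fit without the filter, was 4.38 over 3 sections (SE 0.56, adjusted p = 4.27e-12 in edgeR) and 4.20 over 4. EpCAM-high pixels thus gave about as many Cldn7 counts as all other pixels of these 3 sections, from roughly 5% of the tissue. Cldn6, at 59.1 against 7.74, 46.6 against 3.98 and 58.5 against 0.677 CPM, rose by 3.28 over 3 sections in that fit (SE 0.39, adjusted p = 8.6e-14 in edgeR). Cdh1, the gene of E-cadherin, was at 30.6 against 6.63, 32.1 against 2.62 and 23.4 against 2.03 CPM, a log2 fold change of 2.71 (SE 0.47, adjusted p = 3.88e-06 in edgeR without the filter). Cldn3, Cdh3 and Ocln also rose over 3 sections without the filter, by 2.999, 2.09 and 2.77, though the Ocln call was lost with DESeq2. None of these 6 passed the filter over 4 sections.

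Desmosome and basement membrane genes rose too. Dsp, which links desmosomes to keratin filaments, was at 48.9 against 14.6, 37.9 against 8.94 and 93.7 against 8.12 CPM, with 0 counts in both classes at 10 µm (4-section log2 fold change 2.16, SE 0.38, adjusted p = 0.000272 in edgeR). Dsg2, a desmosomal cadherin, rose by 3.49 over 3 sections without the filter. Lama5 was at 44.9 against 11.8, 35.0 against 6.61, 141 against 10.1 and 12.8 against 6.12 CPM, higher in 4 of 4 sections (log2 fold change 2.30, SE 0.36, adjusted p = 3.09e-05 in edgeR). Of the listed genes, those that did not pass included the hemidesmosomal integrins Itgb4 and Itga6, at -0.30 and -0.07 over 3 sections without a filter.

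Among 8 keratins, only the simple epithelial Krt8, Krt18 and Krt7 were called, 3 of 8 in either unfiltered fit. Krt8 was at 104 against 12.5, 75.8 against 8.84 and 152 against 8.12 CPM, and at 0 against 19 counts at 10 µm, where 0 counts allow up to 12.8 CPM against 3.75 CPM in the other pixels (4-section log2 fold change 3.01, SE 0.35, adjusted p = 5.37e-08 in edgeR). Krt18, its partner in the filament, was at 89.7 against 12.2, 96.2 against 10.8 and 492 against 48.7 CPM, but at 21.3 against 24.9 CPM at 10 µm. Its log2 fold change was 2.602 over 4 sections (adjusted p = 9.66e-05 in edgeR, lost with DESeq2) and 3.09 over 3 (SE 0.24, adjusted p = 2.61e-32 in edgeR). Krt5 and Krt14 of stratified epidermis gave 0 and 2 counts in all EpCAM-high pixels. At 10 µm the keratin list summed to 21.3 against 29.8 CPM, a ratio of 0.71 (0.23 to 1.70), whose interval lies below the ratios of 7.49, 9.11 and 10.6 of the other sections.

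Regulators of the epithelial state followed the same sections. Of 13 detected genes in the regulator and protease list, 5 were higher and 0 lower in either unfiltered fit, and 12 had a positive change. Grhl2, a Grainyhead-like factor that activates junction genes, was at 32.6 against 1.38, 17.5 against 1.36 and 35.1 against 0.677 CPM (3-section log2 fold change 4.21 without the filter, SE 0.58, adjusted p = 3.18e-10 in edgeR). Esrp1, an epithelial splicing factor, was at 38.7 against 6.08, 46.6 against 3.01 and 82.0 against 2.71 CPM and rose by 3.33 (SE 0.41) in that fit. The membrane protease Prss8 rose by 3.71, the protease St14 by 3.402, and their inhibitor Spint2 by 2.01. St14 rests on 7, 5 and 1 counts in the EpCAM-high pixels, so its size is loosely set. At 10 µm the whole list gave 1 count in the EpCAM-high pixels. The intervals of the ratio at 10 µm held 1 for each of the 3 epithelial lists (adhesion 0.79 to 1.52), and their upper ends lay below the ratios of the other sections. In that section the pixels are EpCAM-high by antibody, and these lists do not mark them as epithelial.

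**Figure D3:**
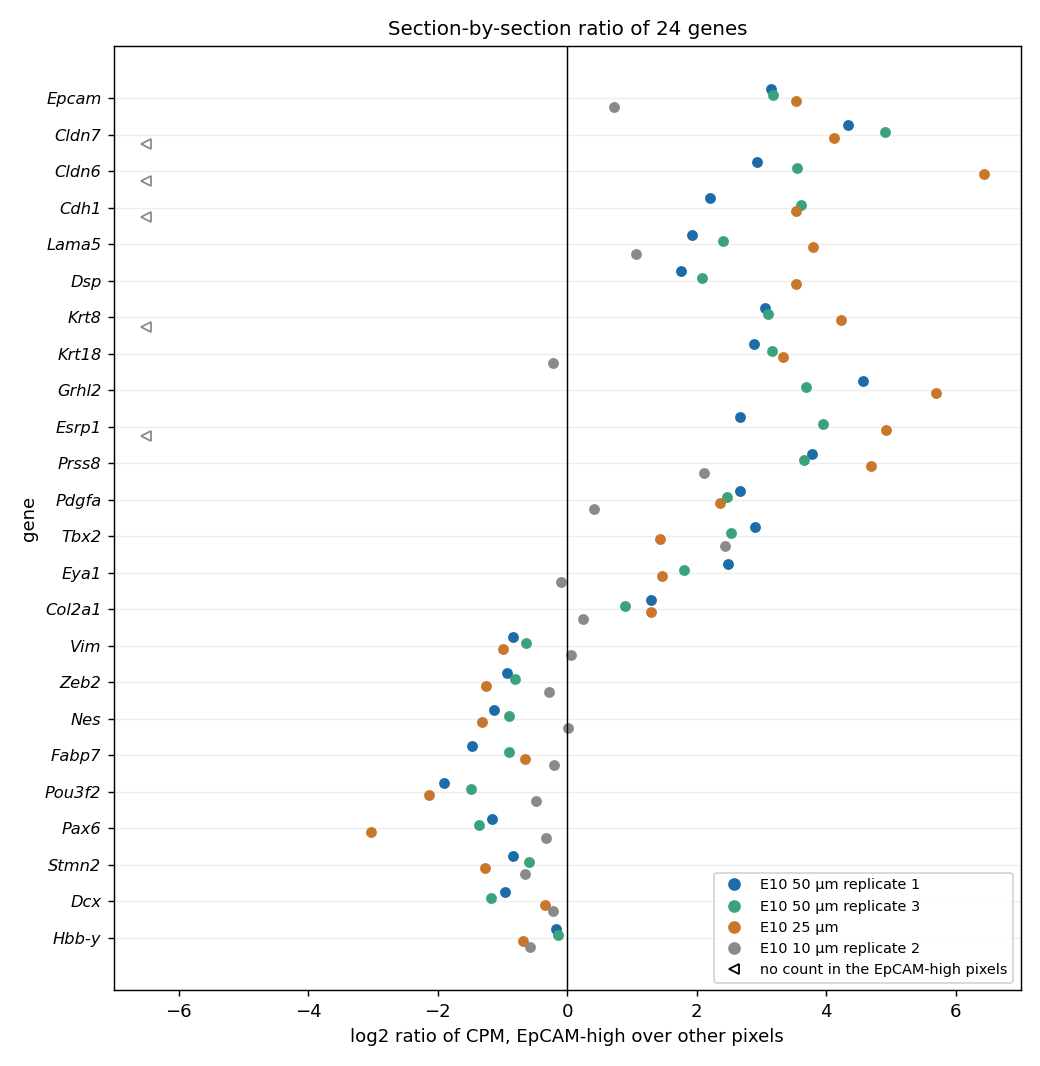
Log2 ratio of CPM in EpCAM-high over other pixels for 24 genes (rows), with a point per section, and open triangles at the left edge where the EpCAM-high pixels held no count. A gene with no count in either class has no point. The 50 µm and 25 µm sections lie together to the right for the epithelial genes and to the left for the neural genes, while the 10 µm section (grey) lies nearer 0 or to the left for most epithelial genes, Tbx2 and Prss8 being exceptions.

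Single regulators and signals outside the epithelial lists were also higher. Eya1, a transcriptional coactivator of otic and olfactory placodes, was at 83.6 against 15.01 CPM at 50 µm replicate 1, at 46.6 against 13.3 at replicate 3 and at 93.7 against 33.8 at 25 µm. At 10 µm it was level, at 8.51 against 9.08 CPM. Its 4-section log2 fold change was 1.804 (SE 0.33, adjusted p = 0.000444 in edgeR). Pdgfa, a growth factor that epithelia send to mesenchyme, was higher in 4 of 4 sections, at 237 against 37.3, 300.2 against 54.5, 422 against 81.9 and 42.5 against 32.0 CPM (log2 fold change 2.23, SE 0.20, adjusted p = 1.67e-09 in edgeR). Tbx2, a T-box repressor, was higher in 4 of 4 sections, by 7.46, 5.75, 2.70 and, at 10 µm, 5.38 times: 65.3 against 8.75, 40.8 against 7.09, 58.5 against 21.6 and 17.01 against 3.16 CPM (log2 fold change 2.46, SE 0.35, adjusted p = 2.89e-06 in edgeR). The 10 µm value rests on 4 and 16 counts. The naming rule takes only genes that moved the same way in all 4 sections. Of the other genes that it gave, Cpm, Eya4, Fhdc1, Pla2g16, Abcg1, Col9a2, Sostdc1, Npnt, Bcam, Pdgfc and Cldn11 had log2 fold changes of 1.52 (Cldn11) to 2.08 (Cpm). The calls of Fhdc1, Abcg1, Sostdc1, Bcam and Cldn11 were lost with DESeq2, and those of Fhdc1 and Cldn11 also without the filter.

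Lists for the sites of these epithelia differed between sections. In the surface ectoderm list, 3 of 10 were higher in either unfiltered fit (Trp63, Fermt1 and Sfn over 3 sections) and 0 lower, and 8 of 10 had a positive change (31.3% of all genes over 3 sections). The list summed to 1.82 (1.47 to 2.22), 1.31 (0.931 to 1.78), 1.41 (0.831 to 2.24) and 0.936 (0.422 to 1.81) times the other pixels. Trp63, the master factor of stratified epithelium, gave 9, 2 and 1 counts against 12, 6 and 0. The foregut and pharyngeal list gave 1 of 10 over 3 sections, Tbx1 at a log2 fold change of 1.67 (lost with DESeq2), and 0 over 4. The list for gut and liver bud gave 0 of 10, and its sum was 143 against 152, 81.6 against 143, 93.7 against 89.98 and 29.8 against 23.9 CPM. In the list for ear, lens and nasal placodes, 3 of the 11 genes with a fit were higher and 1, Pax6, was lower. That list summed to 2.09 (1.802 to 2.41) and 1.62 (1.23 to 2.10) times the other pixels at 50 µm replicate 1 and 25 µm, but to 0.931 (0.761 to 1.13) at 50 µm replicate 3 and 0.699 (0.534 to 0.9002) at 10 µm. In the list for nephric duct and coelomic lining, 0 of 10 were higher and 1, Lhx1, was lower.

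**Figure D4:**
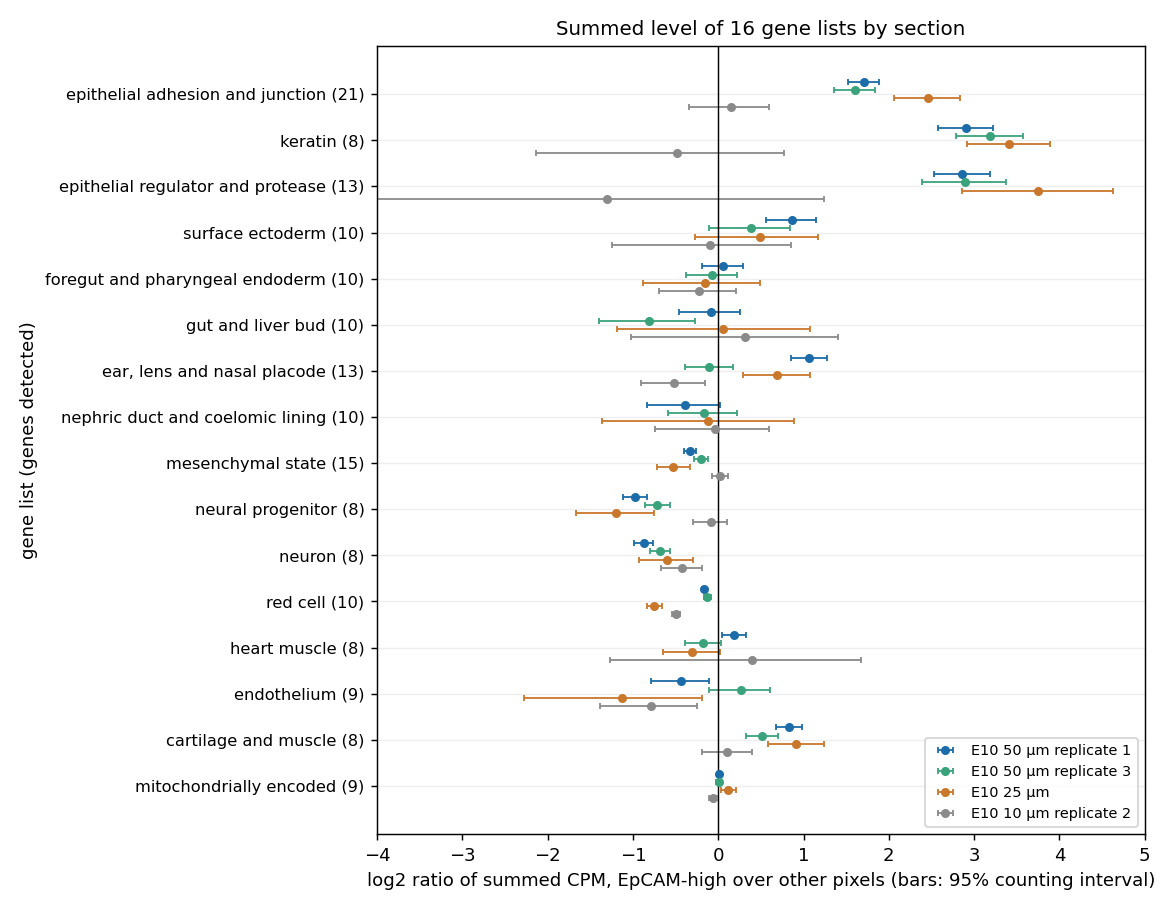
Summed level of 16 gene lists as the log2 ratio of EpCAM-high over other pixels, by section, with 95% exact counting intervals. The 3 epithelial lists lie to the right in the 50 µm and 25 µm sections and span 0 at 10 µm, where the bar of the regulator list runs past the left edge, and the neuron list lies to the left in all 4 sections.

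Neural genes fell, and neuron genes did so as a whole list. All 8 genes of the neuron list were lower in either unfiltered fit, and 7 of 8 in the filtered 4-section fit. The list summed to 1462 against 2679, 1845 against 2958, 1030 against 1564 and 642 against 863 CPM, so it was lower in 4 of 4 sections, including the 10 µm section. Stmn2, a growth cone protein, was at 253 against 453, 402 against 604, 117 against 284 and 97.8 against 153 CPM (log2 fold change -0.76, SE 0.12, adjusted p = 5.04e-05 in edgeR). Elavl3 (-0.99), Dcx (-0.87), Nefl (-0.85), Map2 (-0.78), Elavl4 (-0.65) and Tubb3 (-0.53) fell as well. With DESeq2, the calls of Nefl, Map2, Elavl4 and Tubb3 were lost. Of 8 neural progenitor genes, 4 were lower and 0 higher in either unfiltered fit. Nes, the intermediate filament of neural stem cells, was at 373 against 814, 539 against 1006 and 176 against 437 CPM in the first 3 sections and at 387 against 383 CPM at 10 µm, so 1 section did not share the fall (4-section log2 fold change -0.80, SE 0.14, adjusted p = 0.00132 in edgeR). Fabp7, a radial glia protein, fell by 0.88 on the log2 scale. Pou3f2, whose upstream sequence is given above, was at 51.0 against 191, 78.7 against 220.1, 11.7 against 51.4 and 25.5 against 35.7 CPM (log2 fold change -1.59, SE 0.22, adjusted p = 2.31e-06 in edgeR). The largest fall of a named gene was that of Rbfox3, a marker of mature neurons, with 0, 8, 2 and 2 counts in the EpCAM-high pixels against 354, 752, 65 and 114 (log2 fold change -2.07, SE 0.42, adjusted p = 0.00172 in edgeR, lost with DESeq2).

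Genes of the mesenchymal state split. Vim, an intermediate filament gene of the mesenchymal list, was at 1224 against 2178, 1486 against 2323 and 831 against 1664 CPM in the first 3 sections. At 10 µm it was at 2649 against 2534 CPM. Its log2 fold change was -0.81 over 3 sections (SE 0.08, adjusted p = 3.66e-18 in edgeR), and over 4 sections it was -0.55 and did not pass (adjusted p = 0.248). Zeb2 and Zeb1, repressors of E-cadherin, were lower over 3 sections by 0.92 and 0.66 on the log2 scale, Zeb2 also over 4, and all 3 of these calls were lost with DESeq2. Against depth-matched pixels the 4-section Zeb2 call was lost too. Prrx1, a factor of limb and facial mesenchyme, was higher over 4 sections (0.93, adjusted p = 0.0294 in edgeR), a call lost with DESeq2, against depth-matched pixels, with at least 500 antibody counts and without either 50 µm section. It was so in 3 of 4 sections: it was at 99.9 against 53.0, 157 against 46.5 and 76.5 against 50.0 CPM, but at 35.1 against 88.6 CPM at 25 µm. The collagens Col1a1, Col1a2 and Col3a1 were not called in any of the 4 fits. Col2a1, a collagen of cartilage that otic and other epithelia also make, was higher in 4 of 4 sections, at 589 against 242, 481 against 260.4, 831 against 341 and 315 against 266 CPM (log2 fold change 0.94, SE 0.12, adjusted p = 1.56e-06 in edgeR).

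Red cell genes were lower, less so in the 50 µm sections than in the other pair. The red cell list summed to 0.891, 0.914, 0.595 and 0.710 times its level in the other pixels, and 5 of its 10 genes were lower in either unfiltered fit. The embryonic globin Hbb-y was at 8919 against 10083, 5177 against 5707, 4730 against 7628 and 5613 against 8362 CPM, lower in 4 of 4 sections (log2 fold change -0.39, SE 0.07, adjusted p = 0.000456 in edgeR). Hba-a1, Hba-a2 and Hbb-bh1 fell by 0.38, 0.36 and 0.35 on the log2 scale, the latter pair not with DESeq2, and none of the 4 globins kept its call over 3 sections with DESeq2. Over 4 sections, all 4 globins lost their call with the top 10% of pixels and with the raw tag count. They lost it too when each share was divided by its grid row and column medians. Reads of the near-identical Hba-a1 and Hba-a2 may be split between them. The endothelial list summed to 0.740 (0.581 to 0.930), 1.20 (0.927 to 1.53), 0.457 (0.207 to 0.877) and 0.581 (0.384 to 0.845) times the other pixels, below 1 in 3 of 4 sections. None of its 9 genes and none of 8 heart muscle genes was called in any of the 4 edgeR fits, filtered or not, and the mitochondrially encoded genes summed to 0.96 to 1.09 times the level of the other pixels.

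**Figure D5:**
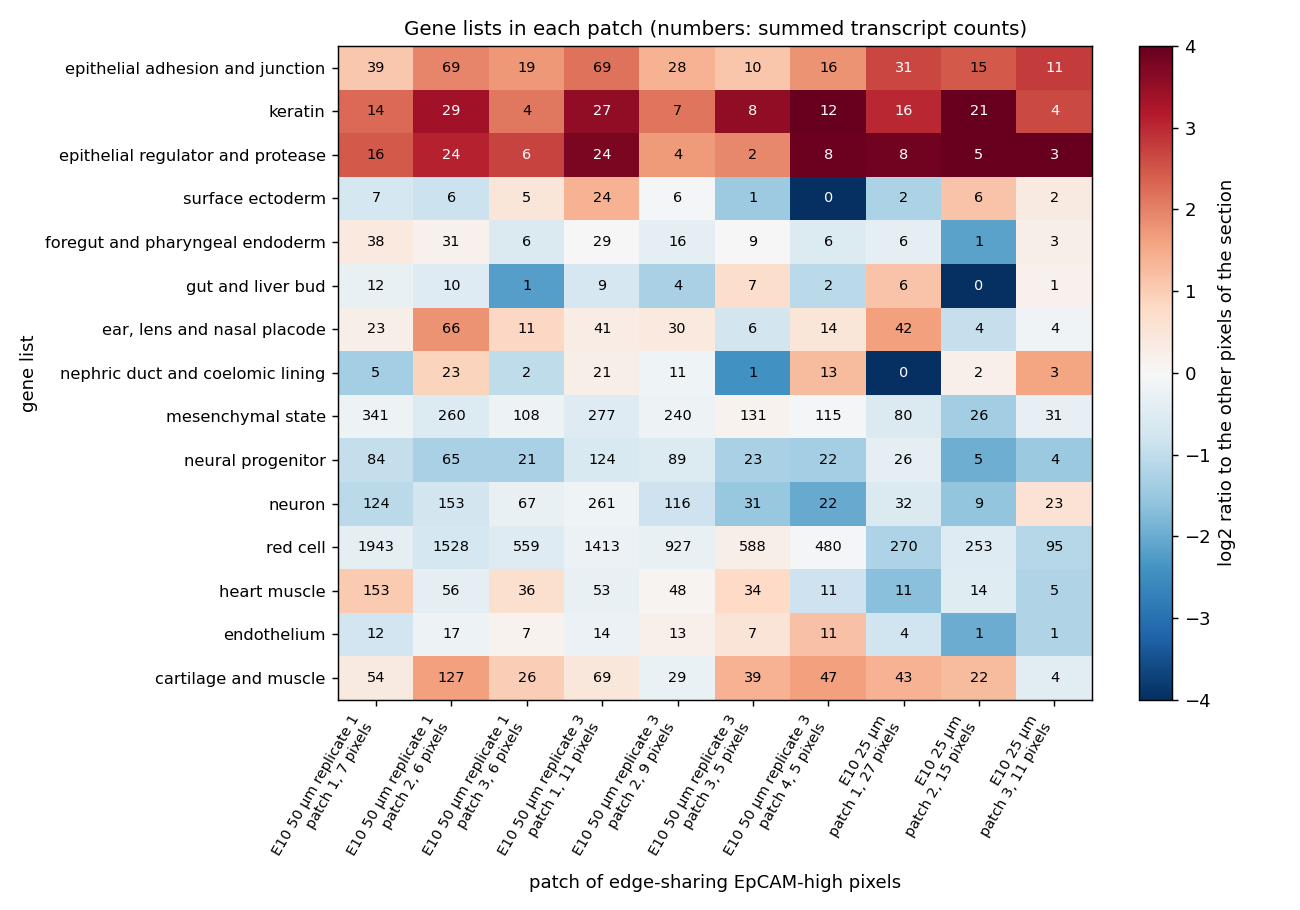
Log2 ratio of the summed level of 15 gene lists in each of the 10 patches of 5 or more edge-sharing EpCAM-high pixels over the other pixels of the section, with the summed counts as numbers. Cells with 0 counts are drawn at the bottom of the scale. The 3 epithelial lists were above 1-fold in all 10 patches, whereas the site lists differed from patch to patch.

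The patches of EpCAM-high pixels differed in the site genes that they held. They are described with no test, since patches of a section share its library. The 3 epithelial lists were higher in each of the 10 patches, by 2.1 to 6.9 times for adhesion genes 4.3 to 18.9 times for keratins and 3.28 to 16.6 times for regulators. For the regulators, 2 patches of 50 µm replicate 3 had 4 and 2 counts, with intervals that held 1. Among the EpCAM-high pixels, Oc90, which encodes otoconin-90 of the otic vesicle, lay almost wholly in 1 patch in each of 2 sections. The other pixels of both sections held Oc90 counts too. In a 6-pixel patch at 50 µm replicate 1 it gave 20 counts, 100% of those in the EpCAM-high pixels of that section, at 212 CPM against 2.21 in the other pixels. In the 27-pixel patch at 25 µm it gave 27 of the 28 counts, at 892 CPM against 13.5. The first of these patches also held Eya1 at 159 and Col2a1 at 1126 CPM, and the second held Eya1 at 132 and Col2a1 at 1091 CPM. At 50 µm replicate 3 the EpCAM-high pixels held 0 Oc90 counts, and 0 at 10 µm. Over 3 sections Oc90 was called higher (log2 fold change 4.12 without the filter, adjusted p = 2.76e-17 in edgeR), which rests on 2 of them.

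Other patches carried other genes, some from few counts: 6 for Tbx1, 7 for Sfn and 9 for Gata3 in the patches below. A 7-pixel interior patch at 50 µm replicate 1 held Tbx1, of the pharynx and the otic vesicle, at 61.7 CPM against 9.85 (74.3 CPM in the patch with Oc90), and Myl7, of atrial muscle, at 298 against 90.5 CPM, and its heart muscle list summed to 2.06 times the level of the other pixels (1.75 to 2.42), its foregut and pharyngeal list to 1.32 times (0.934 to 1.82) and its gut and liver bud list to 0.812 times (0.419 to 1.42). A 15-pixel interior patch at 25 µm had the highest keratin ratio, 18.9 (11.2 to 30.6), with Krt18 at 937 CPM. The 11-pixel patch at 50 µm replicate 3 had Sfn, of stratified epithelia, at 70.0 against 4.28 CPM and the 3 Krt15 counts of the EpCAM-high pixels, with a surface ectoderm list of 2.6 times. All 9 Trp63 counts of the EpCAM-high pixels at 50 µm replicate 1 lay outside its patches, in the 24 pixels of smaller groups, 14 of them on the tissue border. A 5-pixel patch at 50 µm replicate 3 held Gata3 at 302 against 39.6 CPM. Its cartilage and muscle list summed to 3.13 times the other pixels (2.30 to 4.17), its nephric duct list to 2.42 times (1.28 to 4.14) and its endothelial list to 2.23 times (1.11 to 4.002), while its foregut and pharyngeal list was at 0.679 times (0.249 to 1.48).

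In the 50 µm sections Epcam was higher both at the border and inside the tissue. At 50 µm replicate 1 it was at 135 against 23.0 CPM in border pixels and 151 against 15.1 CPM in interior pixels. At 50 µm replicate 3 it was 49.3 against 6.95 and 63.3 against 6.29 CPM. The border pixels of the other sections held too few counts to show it, with 1 against 1 count at 25 µm and 0 against 3 at 10 µm. With interior pixels alone and 3 sections, its log2 fold change was 3.33, and 107 genes were higher and 108 lower. With border pixels alone, where fewer genes could be tested, 9 were higher and 22 lower, and Epcam did not pass the filter on low counts.

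The other 21 antibodies showed how far the choice is particular to EpCAM, again as description. Per 10000 counts of the other antibodies, their ratios between EpCAM-high and other pixels lay between 0.57 (panendothelial antigen, 25 µm) and 1.41 (CD63, 25 µm). When the top 5% of pixels was taken for each antibody in turn, EpCAM gave the highest ratio of Epcam transcript among 22 at 50 µm replicate 1, 50 µm replicate 3 and 25 µm, and rank 10 at 10 µm. The next antibody reached 6.17 (NK-1.1), 1.49 (CD41) and 9.08 (CD55, from 3 counts) in the first 3 sections. The NK-1.1 top pixels of 50 µm replicate 1 held 55 Epcam counts, 28 of them in pixels that were not EpCAM-high, and 7 of these 43 pixels (16.3%) were EpCAM-high. Among the cognate genes of the other antibodies, Cd63 was higher over 4 sections (log2 fold change 0.57, SE 0.15, adjusted p = 0.0361 in edgeR, lost with DESeq2 and without the filter), while the CD63 antibody ratio was 0.87, 1.24, 1.41 and 1.05. The Cd63 call held in only 4 of 16 alternatives. It was also lost against depth-matched pixels and on leaving out either 50 µm section or the 25 µm section. Notch1 was lower over 3 sections (-0.98, adjusted p = 0.0188 in edgeR, lost with DESeq2) and did not pass over 4 (-0.79, adjusted p = 0.176; 0.0297 without the filter), with antibody ratios of 0.93, 0.90, 1.03 and 0.98.

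A pair of further E10 libraries had no antibody tags and played no part in the choice of pixels or genes. In them, pixels with at least 1 Epcam count were set against those with 0, although such pixels were also deeper (medians of 12827 against 7730 counts at 50 µm replicate 2 and 6711 against 3953 at 10 µm replicate 1). The part of depth in what follows was not tested. Of the 77 other genes called higher over 4 sections, 62 (80.5%) and 63 (81.8%) were higher in the pixels with Epcam, against 52.3% and 52.0% of all tested genes. Of the 75 genes called lower, 60 (80.0%) and 59 (78.7%) were lower there, against 47.7% and 48.0% of all tested genes.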

How the data were processed

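The authors deposited tables of counts per pixel for transcripts (genes in columns, per the file headers) and, for sections with antibodies, counts of tags of 22 antibodies. The submitters' processing notes name CASAVA 1.8.2 and GRCh38, a human build, although the gene symbols are those of mouse. The aligner, the counter and the build behind the counts are not given in the sources used here, and gene positions come from GENCODE M21 (GRCm38). An antibody library and a transcript library were taken as 1 section where their titles match. No map of pixels to cell types was used.

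Counts were summed per section over the EpCAM-high pixels and over all other tissue pixels, since pixels are not replicates. The 4 pairs of sums were fitted with edgeR 4.0.16 (TMM, a filter on low counts by filterByExpr, robust quasi-likelihood test, 3 residual degrees of freedom), with the section as a block because both sums come from the same section. The p-values were adjusted by Benjamini and Hochberg over all genes tested, at 0.05. The SE given with an edgeR fold change is its absolute value divided by the square root of the F statistic of the test. It is not a separate measure of the spread between sections. R 4.3.3, limma 3.58.1, DESeq2 1.42.0, Python 3.11.15 and scipy 1.17.1 were used. The fit was tested on simulated data. Intervals are exact 95% intervals and, like the limit of 3 counts, cover counting error only.

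The members, the gene lists (16 lists, 172 genes) and the tests were chosen with earlier results of these data known. The named genes were Epcam, up to 15 called genes per direction with the largest changes that moved the same way in all 4 sections, all called genes of the lists, and the cognate genes of the antibodies. The same rule was applied to the 3 sections without the 10 µm one after values were seen, and the genes named for single patches were likewise chosen after their values were seen. Alternatives covered normalisation, filter, tool, cut-offs for tissue and for the antibody, comparison pixels, and leaving out each section. A result among the named genes is not reported here.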

Additional observations from a re-analysis of the deposited data

Results flagged for a closer look

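Of 21 measures compared across the 4 sections, 2 set the E10 10 µm replicate 2 section apart, its gap to the nearest other section being a larger part of the whole range than Dixon's 95% critical value. Chance flags about 1 in 20 such groups. The first is the median antibody total of EpCAM-high pixels over that of the other pixels, which was 0.621 there against 0.974, 0.968 and 0.949 in the other sections. The second is the share of EpCAM-high pixels with under 500 antibody counts, which was 67.5% there against 0% in each of the other sections. With the other sections tied at 0%, any other value at 10 µm would be flagged. Both measures rest on the antibody totals that the choice of pixels used, so the flags are a description and not a test.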

How the results depend on the processing

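Epcam was higher under every alternative that gave it a value, with log2 fold changes of 2.12 to 3.32 over 4 sections and 3.09 to 3.46 over 3. It failed the filter on low counts without 50 µm replicate 1 and in border pixels alone. Without the replicate block, which pairs the sums of a section, its value was 3.14 (adjusted p = 0.936 in edgeR), and 0 genes were called higher and 0 lower (306 at an unadjusted p under 0.05). Over 4 sections, the genes called higher numbered 35 with the top 2.5% of pixels, 44 with the top 10%, 47 with a tissue threshold of 0.25, 51 with at least 500 antibody counts, 7 with pixels ranked by raw EpCAM tag count and 25 against depth-matched pixels. Genes called lower numbered 20 with DESeq2, 245 without the filter, 42 with the top 10%, 3 with the raw tag count and 42 against depth-matched pixels. Leaving out 1 section gave 10 to 175 higher and 12 to 184 lower genes, the lowest without 50 µm replicate 1 and the highest without 10 µm replicate 2. Over 3 sections, genes called higher numbered 67 with DESeq2, 91 against depth-matched pixels, 107 in interior pixels and 9 in border pixels, and genes called lower 32 with DESeq2, 108 in interior and 22 in border pixels, where fewer pixels and genes entered. The cause of the other shifts was not tested. Prrx1 reversed, to -0.21, with the raw tag count. Of 53 named genes, 23 kept their call with DESeq2 and 50 without the filter, and of the 50 with a value, 13 did so without 50 µm replicate 1. Of the 52 with a value, 36 kept it when each share was divided by its grid row and column medians. Of 93 named genes over 3 sections, 42 kept it with DESeq2. The depth-matched, interior, border and 3-section alternatives were chosen after seeing the data. Transcript depth limits the 25 µm section most, where 3 counts equal 35.1 CPM in the EpCAM-high pixels.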
